A study of Mus musculus with 4 samples.

Results

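The genes described here are 34 genes of mitosis and the G2/M transition, taken from a fixed list of symbols and measured in mouse bone marrow-derived macrophages by RNA sequencing. All 34 were found among the 24135 gene symbols of the deposited tables, under 58 RefSeq entries, and 21 of them had a single entry. The study holds 4 libraries, 1 per group, all of C57BL/6 mouse bone marrow cells grown for 6 days with 10 ng/ml GM-CSF, a myeloid growth factor, and used as the adherent fraction. The groups were cells that lacked the transcription factor Batf2 (Batf2-/-, here KO) at 3 h and at 0 h of 100 ng/ml lipopolysaccharide (LPS), and Batf2+/+ cells (here WT) at 3 h and at 0 h. All 4 groups, the 0 h groups included, had first received 10 ng/ml of interferon-gamma for 4 h, so no group is free of interferon-gamma. How many animals gave the cells of a library is not given in the sources used here. In bulk RNA of this kind, fewer dividing cells and less of these transcripts per dividing cell cannot be told apart.

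Mitosis is driven by cyclin-dependent kinase 1 bound to A- and B-type cyclins, opened by CDC25 phosphatases and closed when the anaphase-promoting complex destroys the cyclins. Most of these genes are transcribed late in the cell cycle, repressed outside it by the DREAM complex and switched on by MYB-MuvB and FOXM1 through promoters that carry a cell cycle genes homology region (CHR) and CCAAT boxes bound by NF-Y. Bone marrow macrophages divide in the presence of their growth factor, and macrophage-activating stimuli such as LPS and interferon-gamma are known to stop that proliferation.

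With 1 library per group there was no test, and no p-value or standard deviation can be given. Values are FPKM, the reads on a transcript scaled to its length and to the size of the library, and differences are log2(FPKM + 1), which understates the change of low genes. A gene passed the size rule when it differed by at least 1 on that scale (2-fold), reached 1 FPKM in either library, and had deposited 95% intervals that did not overlap. Those intervals cover counting and read assignment in 1 library, not the spread between cultures. "Rose" and "fell" are used below only of genes that passed this rule. Estimated depth lay between 20.3 and 30.7 in units of 1000000 reads. Batf2 itself had 10.1 FPKM in KO cells and 234.3 FPKM in WT cells at 3 h, and 0.259 FPKM in KO cells and 2.63 FPKM in WT cells at 0 h. All 10 macrophage markers examined were detected in all 4 libraries, with list medians between 152.6 and 187.0 FPKM. Their summed FPKM lay between 16185 and 25085, most of it from 1 gene at 14415 to 23092. The lymphoid and erythroid lists summed to at most 1.78 and 0.272. A neutrophil and precursor list, described further on, summed to between 3525 and 8711.

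Promoter sequence was examined because 32 of the 34 genes were lower after LPS in both genotypes, Pttg1 and Mki67 being the exceptions. Lower values were common at large: 8756 of 10963 genes measured were lower in KO cells and 8455 of 10845 in WT cells. Of the 34, 29 were in a RefSeq table (GRCm38.p6) of windows reaching from 250 bases before to 50 bases after the start site, with 31 windows in all. Ccna2, Cdc25c, Aurkb, Tpx2 and Kif20a were not in it. The CHR-type hexamers TTTGAA and TTCGAA, read on both strands, were present in 25 of the 31 windows (80.6%), against 19.2% of all 32851 windows in the table. Within 50 bases of the start site they were present in 74.2% of the members' windows and in 5.31% of all windows. CCAAT, on either strand, was found in 80.6% of the members' windows and 37.4% of all windows, and both kinds together in 74.2% and 7.52%. Ccnb1, Birc5, Cenpe, Nuf2, Nusap1 and Pttg1 had no such hexamer in the window, and Birc5, Nuf2, Ndc80, Kif2c, Nusap1 and Pttg1 had no CCAAT. S-phase genes, described further on, held the hexamer in 14.3% of their windows. Their median difference between 3 h and 0 h was -1.50 in KO cells and -1.63 in WT cells. A link between the hexamer and the change after LPS was not tested. These matches are letters in a window, not shown binding sites.

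The windows of the 4 genes with the highest mean FPKM among those that hold the hexamer are shown first, so that they can be read beside the values of these genes given further on, and capitals mark the hexamers and CCAAT on either strand (the CCAATTGG of Ube2c holds 2 overlapping CCAAT matches). Mki67 (chr7:135716330-135716629, minus strand) has 2 hexamers, Ube2c (chr2:164769679-164769978, plus strand) has 1, Top2a (chr11:99024140-99024439, minus strand) has 4 and Ccnb2 (chr9:70421505-70421804, minus strand) has 2.
Mki67: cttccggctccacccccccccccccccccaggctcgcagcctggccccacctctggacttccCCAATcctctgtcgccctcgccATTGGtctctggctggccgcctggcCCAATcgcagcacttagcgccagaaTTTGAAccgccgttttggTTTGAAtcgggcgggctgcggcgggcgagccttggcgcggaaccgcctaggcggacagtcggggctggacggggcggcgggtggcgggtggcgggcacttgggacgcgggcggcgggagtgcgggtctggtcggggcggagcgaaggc
Ube2c: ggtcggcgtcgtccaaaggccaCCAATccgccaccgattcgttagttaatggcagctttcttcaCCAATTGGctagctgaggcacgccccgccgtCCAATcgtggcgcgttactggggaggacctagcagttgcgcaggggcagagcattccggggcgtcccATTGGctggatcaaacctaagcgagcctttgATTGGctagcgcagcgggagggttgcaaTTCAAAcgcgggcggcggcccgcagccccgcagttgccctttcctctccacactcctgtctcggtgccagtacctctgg
Top2a: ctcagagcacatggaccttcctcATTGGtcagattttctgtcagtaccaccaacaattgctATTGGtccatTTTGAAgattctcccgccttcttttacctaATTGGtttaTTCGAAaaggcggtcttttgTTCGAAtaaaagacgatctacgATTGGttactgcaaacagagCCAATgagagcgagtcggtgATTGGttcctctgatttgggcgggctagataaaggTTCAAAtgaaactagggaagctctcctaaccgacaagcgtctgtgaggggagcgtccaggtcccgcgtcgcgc
Ccnb2: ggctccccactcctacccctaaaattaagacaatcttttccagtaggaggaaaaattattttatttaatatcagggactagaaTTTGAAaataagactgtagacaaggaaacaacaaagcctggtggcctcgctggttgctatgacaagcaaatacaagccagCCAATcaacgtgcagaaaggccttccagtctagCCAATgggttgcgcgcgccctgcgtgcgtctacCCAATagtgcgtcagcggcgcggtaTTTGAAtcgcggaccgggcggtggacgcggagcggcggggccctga

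Short stretches around the hexamer nearest to the start site are shown for 6 genes, chosen after their values were seen, with the hexamer in capitals. Among genes whose window holds the hexamer and whose 3 h levels are above 0, these had the lowest ratio of 3 h to 0 h, averaged over KO and WT cells on the log2 scale. Cdc20, listed at 0 in both 3 h libraries, has no such ratio and is not shown, and its hexamer lay at -18. Its first base lay at 8 bases from the start site in Cdc25b (chr2:131186943-131186972) and in Ttk (chr9:83834684-83834713), at 3 in Kif23 (chr9:61946780-61946809) and Cenpf (chr1:189688067-189688096), at 41 in Bub1b (chr2:118598239-118598260) and at -103 in Kif2c (chr4:117178858-117178887). Bub1b has another hexamer farther upstream, not shown. In 5 of these 6 genes a hexamer was thus within 50 bases of the start site, a share near the 74.2% of all members' windows, and Kif2c had it farther upstream.
Cdc25b: ccgctgttatttTTCGAAtatataaggagg
Ttk: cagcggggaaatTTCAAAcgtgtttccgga
Kif23: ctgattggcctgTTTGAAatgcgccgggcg
Cenpf: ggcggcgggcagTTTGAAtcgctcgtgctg
Bub1b: agagacgttaaaTTTGAAactt
Kif2c: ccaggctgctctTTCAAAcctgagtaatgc

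**Figure D1:**
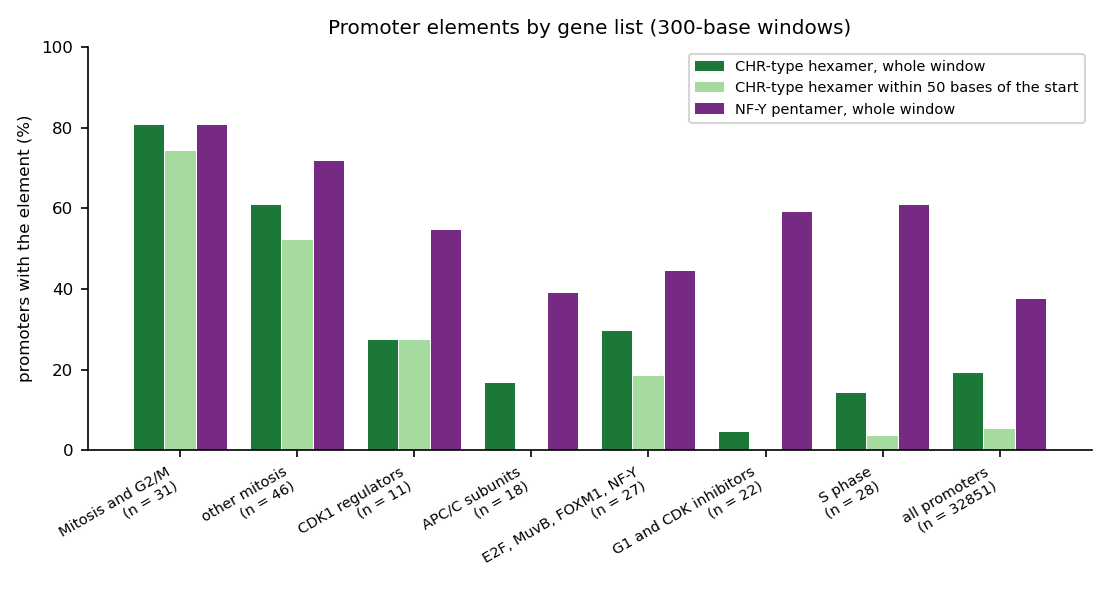
Share of promoter windows (%, y axis) that hold a CHR-type hexamer anywhere in the window (dark green) or within 50 bases of the start site (light green), or a CCAAT pentamer bound by NF-Y (purple), for the mitosis and G2/M genes, 6 other cell cycle lists and all promoters. The hexamer is in 80.6% of the members' windows, in 60.9% of those of other mitosis genes and in 14.3% of those of S-phase genes.

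After 3 h of LPS, most of the 34 genes were lower in both genotypes, as the plot of levels by library shows. In KO cells 26 fell and 1 rose, where 28.0% of 10963 genes fell and 7.86% rose. In WT cells 27 fell and 1 rose, where 23.2% of 10845 genes fell and 7.57% rose. The median difference of the 34 was -1.39 in KO cells and -1.33 in WT cells, against -0.64 and -0.54 over all genes. Of the 34, 25 fell in both genotypes, where 20.7% of all genes did so, and 1 (Pttg1) rose in both, where 6.76% did. Deposited intervals were apart for all 32 members that were lower at 3 h, in each genotype. Over all genes they were apart for 7762 of the 8756 lower genes in KO cells and 7101 of the 8455 in WT cells. Those genes made up 70.8% and 65.5% of all genes measured. Among the 31 genes that were lower at 3 h and not listed at 0, the level was lower by a median of 3.42-fold in KO cells and 3.43-fold in WT cells. The reduction was more than 4-fold for 12 genes in KO cells and 7 in WT cells. A share of all genes past 4-fold was not counted, so these counts have no background here. They are not read as a difference between genotypes. The change after LPS in KO cells minus that in WT cells had a median of -0.0027 over the 34 genes, and none passed the rule for it. The summed FPKM of the 34 was 251.8 at 3 h against 500.1 at 0 h in KO cells, and 260.7 at 3 h against 553.3 at 0 h in WT cells. All 34 passed the FPKM filter in both genotypes, but Cdc25c, Ttk, Cenpf, Espl1 and Cdc20 did so only through the 0 h libraries.

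The size of this change depends on how libraries are scaled, because the median gene itself was lower at 3 h. When each library was divided by its median ratio, the median of all genes became -0.08 in KO cells and -0.07 in WT cells, and that of the 34 genes -0.91 and -0.89. With this scaling 13 of the 34 fell in KO cells, where 10.3% of all genes did, and 15 fell in WT cells, where 9.93% did. A total of 11 fell in both, where 7.76% of all genes did. With it 2 of the 34 rose in KO cells, where 13.0% of all genes did, and 1 rose in WT cells, where 11.9% did. The share of higher calls among all calls was 55.9% in KO cells and 54.4% in WT cells after rescaling, against 21.9% and 24.6% on the deposited scale. Among the 34 genes, the direction of 3 h against 0 h turned with median ratio scaling for Cenpe and Kif4 in KO cells, to 0.02 and 0.14, and for none in WT cells.

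**Figure D2:**
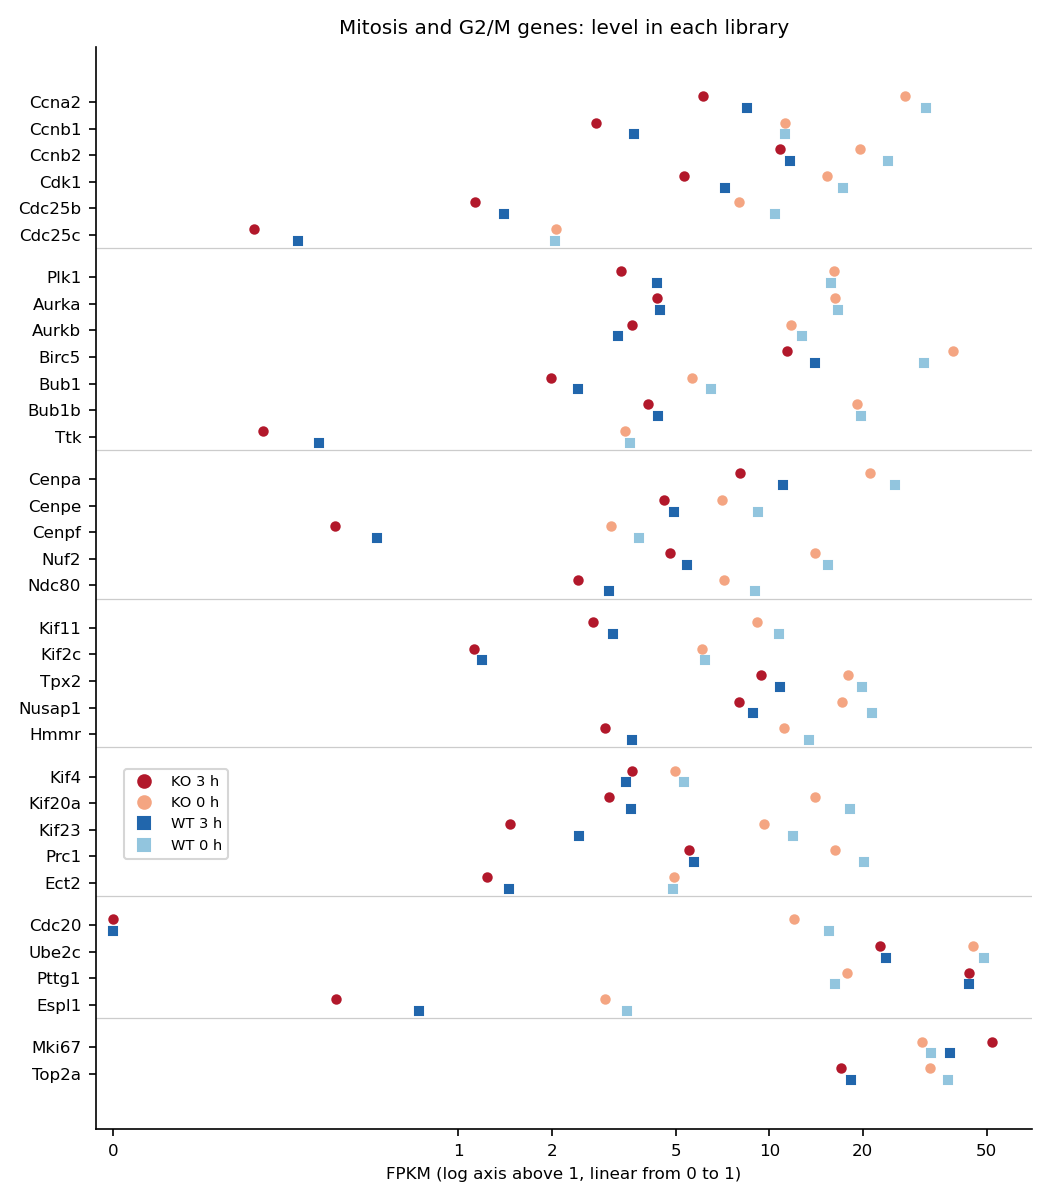
FPKM (x axis, logarithmic above 1) of each of the 34 genes in the 4 libraries, in blocks by role: entry into mitosis, kinases and checkpoint, centromere and kinetochore, spindle, midzone and cytokinesis, anaphase, and chromosome structure. For 32 genes both 3 h points lie left of both 0 h points, and for Pttg1 and Mki67 they lie right of them.

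Mitotic entry genes fell in 5 of 6 cases in KO cells and in 4 of 6 in WT cells. Ccna2, the A-type cyclin of S phase and early mitosis, had 6.10 FPKM at 3 h against 27.3 at 0 h in KO cells, and 8.47 at 3 h against 31.8 at 0 h in WT cells. Ccnb1, the main mitotic cyclin, had 2.77 FPKM at 3 h against 11.2 at 0 h in KO cells and 3.66 at 3 h against 11.3 at 0 h in WT cells. Cdk1, the kinase that both cyclins activate, had 5.31 FPKM at 3 h against 15.3 at 0 h in KO cells and 7.20 at 3 h against 17.3 at 0 h in WT cells. All 3 genes were thus lower after LPS in both genotypes, with every 3 h value below every 0 h value. Ccnb1 is an uncertain reading, since 4 mouse pseudogenes match its transcript at 96.6% to 99.2% identity.

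Cdc25b, the phosphatase that starts CDK1 activation at the centrosome, was the most reduced entry gene, with 1.13 FPKM at 3 h against 7.99 at 0 h in KO cells and 1.40 at 3 h against 10.4 at 0 h in WT cells. This is 7.04-fold lower in KO cells (95% interval 5.46 to 9.08) and 7.43-fold lower in WT cells (5.66 to 9.74). Cdc25c, a second phosphatase of CDK1, had 0.409 FPKM at 3 h against 2.07 at 0 h in KO cells and 0.536 at 3 h against 2.05 at 0 h in WT cells. It fell in KO cells by 1.12 and missed the rule in WT cells at -0.99, a pair of nearly equal values on either side of the threshold. Ccnb2, a B-type cyclin, did not pass in either genotype: it had 10.8 FPKM at 3 h against 19.6 at 0 h in KO cells and 11.6 at 3 h against 24.1 at 0 h in WT cells.

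The 7 kinases, passenger complex and checkpoint genes all fell in both genotypes. Plk1, which drives centrosome maturation and mitotic entry, had 3.34 FPKM at 3 h against 16.1 at 0 h in KO cells and 4.34 at 3 h against 15.8 at 0 h in WT cells. Aurka, the spindle pole kinase, was nearly the same in both genotypes, with 4.36 FPKM at 3 h against 16.2 at 0 h in KO cells and 4.46 at 3 h against 16.6 at 0 h in WT cells. Aurkb, the catalytic subunit of the chromosomal passenger complex, had 3.61 FPKM at 3 h against 11.7 at 0 h in KO cells and 3.27 at 3 h against 12.7 at 0 h in WT cells. In these kinases the 3 h and 0 h levels did not overlap.

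Birc5 (survivin, chr11:117849251-117855743), another subunit of the passenger complex, had 11.4 FPKM at 3 h against 38.9 at 0 h in KO cells and 14.0 at 3 h against 31.5 at 0 h in WT cells. It was 3.42-fold lower at 3 h in KO cells (2.96 to 3.95) and 2.25-fold lower in WT cells (1.91 to 2.64). Its highest and its lowest level were thus both in KO cells. Of the spindle checkpoint genes, Ttk, the kinase MPS1 that initiates the checkpoint, had 0.435 FPKM at 3 h against 3.45 at 0 h in KO cells and 0.595 at 3 h against 3.56 at 0 h in WT cells. Its 7.92-fold reduction in KO cells (5.71 to 11.0) was the highest among the members with a level above 0, and it was 5.98-fold lower in WT cells. At 3 h Ttk was under 1 FPKM in both genotypes. Bub1b (BUBR1, a checkpoint inhibitor of the anaphase-promoting complex) had 4.07 FPKM at 3 h against 19.1 at 0 h in KO cells and 4.40 at 3 h against 19.7 at 0 h in WT cells. Bub1, the checkpoint kinase at the kinetochore, was reduced less, with 1.98 FPKM at 3 h against 5.63 at 0 h in KO cells and 2.42 at 3 h against 6.51 at 0 h in WT cells.

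Of the 5 centromere and kinetochore genes, 4 fell in both genotypes and Cenpe did not pass in either. Cenpa, the histone H3 variant that marks the centromere, had 8.07 FPKM at 3 h against 21.0 at 0 h in KO cells and 11.1 at 3 h against 25.4 at 0 h in WT cells. Cenpf, a large outer kinetochore protein, was at 0.643 FPKM at 3 h against 3.09 at 0 h in KO cells and 0.765 at 3 h against 3.82 at 0 h in WT cells. The NDC80 complex, which binds spindle microtubules, was represented by Ndc80 and Nuf2, each 2.86-fold to 2.95-fold lower at 3 h in both genotypes. Nuf2 had 4.79 FPKM at 3 h against 14.0 at 0 h in KO cells and 5.42 at 3 h against 15.5 at 0 h in WT cells. Ndc80 had 2.42 FPKM at 3 h against 7.14 at 0 h in KO cells and 3.05 at 3 h against 8.99 at 0 h in WT cells. Cenpe, the kinetochore motor, stood apart from these with 4.58 FPKM at 3 h against 7.06 at 0 h in KO cells and 4.93 at 3 h against 9.18 at 0 h in WT cells.

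Spindle assembly genes fell in 4 of 5 cases in each genotype. Kif2c (MCAK, a motor protein that takes microtubules apart) was the most reduced of them, with 1.12 FPKM at 3 h against 6.07 at 0 h in KO cells and 1.19 at 3 h against 6.23 at 0 h in WT cells. Kif11 (Eg5, which pushes the spindle poles apart) had 2.70 FPKM at 3 h against 9.13 at 0 h in KO cells and 3.13 at 3 h against 10.8 at 0 h in WT cells. Hmmr, a microtubule-binding protein of the spindle poles, had 2.96 FPKM at 3 h against 11.1 at 0 h in KO cells and 3.61 at 3 h against 13.4 at 0 h in WT cells. All 3 were lower by 3.38-fold or more in both genotypes. Nusap1, which stabilises spindle microtubules, fell less, by 1.02 in KO cells and by 1.18 in WT cells, and had 7.97 FPKM at 3 h against 17.2 at 0 h in KO cells and 8.84 at 3 h against 21.4 at 0 h in WT cells. Tpx2, the activator of Aurora A, did not pass, with 9.42 FPKM at 3 h against 17.9 at 0 h in KO cells and 10.8 at 3 h against 19.9 at 0 h in WT cells.

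Midzone and cytokinesis genes fell in 4 of 5 cases in each genotype. Kif23 (MKLP1, the motor of the centralspindlin complex) had 1.47 FPKM at 3 h against 9.61 at 0 h in KO cells and 2.45 at 3 h against 11.9 at 0 h in WT cells. It was 6.55-fold lower at 3 h in KO cells (5.31 to 8.07) and 4.87-fold lower in WT cells (4.01 to 5.92). Kif20a (MKLP2, a second midzone motor) had 3.06 FPKM at 3 h against 14.0 at 0 h in KO cells and 3.58 at 3 h against 18.1 at 0 h in WT cells. Both kinesins were thus more than 4-fold lower at 3 h in each genotype. Prc1, which bundles microtubules in the midzone, had 5.52 FPKM at 3 h against 16.2 at 0 h in KO cells and 5.73 at 3 h against 20.2 at 0 h in WT cells. Ect2, the exchange factor that activates RhoA for the contractile ring, had 1.24 FPKM at 3 h against 4.94 at 0 h in KO cells and 1.45 at 3 h against 4.90 at 0 h in WT cells. Each of these 4 genes had lower levels in both 3 h libraries than in either 0 h library. Prc1 and Ect2 are sums of several RefSeq entries, and neither passed in KO cells when only the highest entry per gene was used. In KO cells Prc1 was split at 0 h over entries at 2.68, 8.79 and 4.75 FPKM, and at 3 h lay wholly in the first of these. Kif4, a chromosome and midzone motor, changed least of the genes lower at 3 h, with 3.61 FPKM at 3 h against 4.99 at 0 h in KO cells and 3.45 at 3 h against 5.30 at 0 h in WT cells. Kif4, Kif20a, Prc1 and Ccna2 share 431 to 979 transcript bases with a gene on the opposite strand. The library kit was strand-specific, but whether strand was used in counting is not given in the sources used here, so part of their reads may belong to the neighbour.

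The anaphase genes did not move as one. Ube2c, the ubiquitin-conjugating enzyme of the anaphase-promoting complex, was the highest member at 0 h, and it had 22.7 FPKM at 3 h against 45.1 at 0 h in KO cells and 23.8 at 3 h against 49.0 at 0 h in WT cells. It fell in WT cells by 1.01 and missed the rule in KO cells at -0.96. Espl1 (separase, which cleaves cohesin) fell in both genotypes, with 0.645 FPKM at 3 h against 2.95 at 0 h in KO cells and 0.885 at 3 h against 3.47 at 0 h in WT cells.

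Pttg1 (chr11:43420250-43426251) encodes securin, the inhibitor of separase that must be destroyed before sister chromatids part, and it was the single member that rose on the deposited scale. It had 43.9 FPKM at 3 h against 17.8 at 0 h in KO cells and 43.7 at 3 h against 16.3 at 0 h in WT cells. This is 2.47-fold higher in KO cells (2.13 to 2.87) and 2.69-fold higher in WT cells (2.27 to 3.19). Both genotypes were nearly equal at each time, and Pttg1 moved against its partner Espl1. All its reads were assigned to 1 of its 2 RefSeq entries, the other being listed at 0 throughout. With Mki67 it became one of the 2 most abundant members at 3 h, after ranks 10 in KO cells and 15 in WT cells at 0 h.

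Cdc20 (chr4:118432901-118437352), the activator of the anaphase-promoting complex that marks securin and cyclin B for destruction, had 12.03 FPKM in KO cells and 15.5 FPKM in WT cells at 0 h. It is listed at 0 in both 3 h libraries, so no fold is given, and an exact 0 in such a file can be a failed estimate. No other member was listed at 0. Without Cdc20, 25 genes fell in KO cells and 26 in WT cells, with medians of -1.37 and -1.30. Cdc20 overlaps Elovl1 on the opposite strand, which had 48.5 FPKM at 3 h against 72.4 at 0 h in KO cells and 55.4 at 3 h against 75.2 at 0 h in WT cells. The direction of Elovl1 depends on the scaling, with differences of -0.57 in KO cells and -0.43 in WT cells as deposited and of 0.06 and 0.10 after median ratio scaling.

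Of the pair of chromosome genes, Top2a, the topoisomerase that untangles sister chromatids, had 17.0 FPKM at 3 h against 33 at 0 h in KO cells and 18.3 at 3 h against 37.6 at 0 h in WT cells. Its difference of -0.92 in KO cells missed the rule, and it fell in WT cells by 1.004. Mki67 (chr7:135689784-135716361) encodes Ki-67, the proliferation marker that coats mitotic chromosomes, and it was not lower at 3 h. It had 52.2 FPKM at 3 h against 31.1 at 0 h in KO cells and 38.1 at 3 h against 33.2 at 0 h in WT cells. The ratio was 1.68 in KO cells (1.62 to 1.74) and 1.15 in WT cells (1.10 to 1.19), neither of which passed the size rule on the deposited scale. With median ratio scaling the difference was 1.36 in KO cells, past the threshold, and 0.72 in WT cells. The Mki67 window printed above holds both the hexamer and CCAAT, as do windows of genes that fell. The window of Pttg1 holds neither, and those of Birc5, Nuf2 and Nusap1, which fell in both genotypes, hold neither as well.

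**Figure D3:**
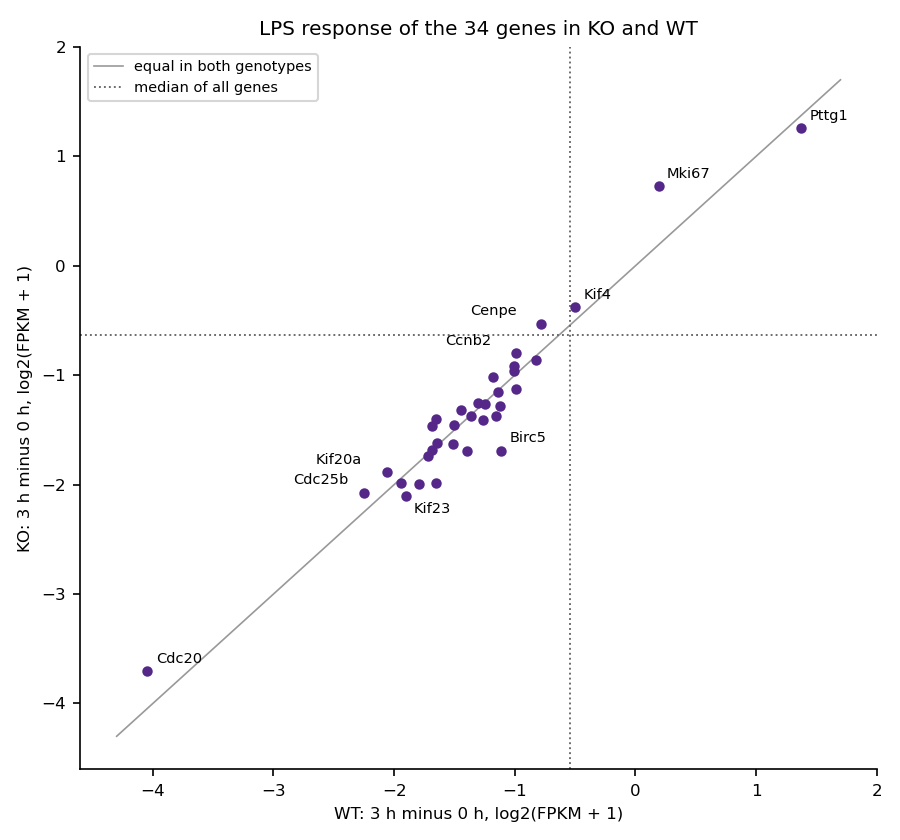
Difference between 3 h and 0 h of LPS, in log2(FPKM + 1), in KO cells (y axis) and WT cells (x axis) for the 34 genes, with dotted lines at the median of all genes (-0.64 in KO cells, -0.54 in WT cells) and a line of equal response. Points lie along the line, with Pttg1 at 1.26 in KO cells and 1.37 in WT cells, Mki67 at 0.73 and 0.19, and Cdc20, listed at 0 at 3 h, at the lower left.

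No member passed the size rule between KO and WT cells, at 3 h or at 0 h. At 0 h, 29 of the 34 were lower and 5 higher in KO cells than in WT cells, none past the rule, where 0.396% of 10846 genes passed it as lower and 1.33% as higher. Of all 10846 genes, 5434 were lower and 5412 higher in KO cells. The median of the 34 was -0.17, against -0.00032 over all genes. Deposited intervals were apart for 15 members that were lower in KO cells, against 10.1% of all genes, and for 1 that was higher, Birc5, against 10.7%. The other lists of dividing cells lay alike: 48 of 52 other mitosis genes and 28 of 29 measured S-phase genes were lower in KO cells at 0 h, with medians of -0.16 and -0.22. These are differences of 1 culture from 1 other, and the interval says nothing of how much cultures vary.

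The largest genotype ratios at 0 h were small. Cdc25b had 7.99 FPKM in KO cells and 10.4 FPKM in WT cells, a ratio of 0.766 (0.671 to 0.874), the lowest of the 34. Cenpe had 7.06 FPKM in KO cells and 9.18 FPKM in WT cells, a ratio of 0.769 (0.705 to 0.840). Kif20a had 14.0 FPKM in KO cells and 18.1 FPKM in WT cells, a ratio of 0.774. Birc5 went the other way, with 38.9 FPKM in KO cells and 31.5 FPKM in WT cells, a ratio of 1.24 (1.10 to 1.39). Ccnb1, Cdc25c, Plk1 and Ect2 were within 2% of equality.

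Markers of other cells differed between the same 0 h libraries. All 12 genes of a neutrophil and precursor list were higher in KO cells at 0 h, 6 past the rule, with a summed FPKM of 8711 in KO cells and 3525 in WT cells. Over all genes at 0 h, 1.33% passed the rule as higher and 0.396% as lower. At 3 h the sums were 5045 in KO cells and 5295 in WT cells. All 6 stromal genes were higher in KO cells at 0 h, 2 past the rule. Their sums were 75.2 in KO cells and 33.4 in WT cells at 0 h, and 54.5 in KO cells and 34.5 in WT cells at 3 h. No gene of these lists was listed at 0. Of 8 dendritic cell genes 6 were measured at 0 h, 5 of them lower in KO cells and 2 past the rule, with sums over the 8 of 2713 in KO cells and 4670 in WT cells. Most of each sum at 0 h came from 1 gene, at 2553 FPKM in KO cells and 4348 in WT cells. The medians of the 8 at 0 h were 2.00 in KO cells and 5.09 in WT cells. At 3 h the sums over the 8 were 3353 in KO cells and 3798 in WT cells. Of 7 mast cell, basophil and eosinophil genes 6 were measured at 0 h, all higher in KO cells and 1 past the rule. Sums over the 7 were 47.4 in KO cells and 31.4 in WT cells at 0 h, and 33.7 and 43.3 at 3 h. The part of these cells in the genotype differences of the mitotic genes was not tested.

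At 3 h, 29 of the 34 reached an FPKM of 1 in KO or WT cells, and 25 of them were lower and 4 higher in KO cells. None passed the rule, where 0.724% of 9808 genes passed it as lower and 0.744% as higher. Of all 9808 genes, 6432 were lower and 3376 higher in KO cells. The median of the 29 was -0.15, against -0.07 over all genes. Intervals were apart for 4 members lower in KO cells, Ccna2, Cdk1, Cenpa and Kif23, against 18.4% of all genes, and for 1 higher, Mki67, against 9.29%. Kif23 had 1.47 FPKM in KO cells and 2.45 FPKM in WT cells, a ratio of 0.6002 (0.466 to 0.773), the lowest of these. Mki67 had 52.2 FPKM in KO cells and 38.1 FPKM in WT cells, a ratio of 1.37 (1.32 to 1.42), where at 0 h its ratio was 0.935 (0.900 to 0.972). The direction of the genotype difference turned with median ratio scaling for Aurka, Kif2c, Prc1 and Ube2c at 3 h and for Cdc25c and Ect2 at 0 h, and with upper quartile scaling for Ccnb1 at 0 h. All 7 were within 6% of equality on the deposited scale.

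**Figure D4:**
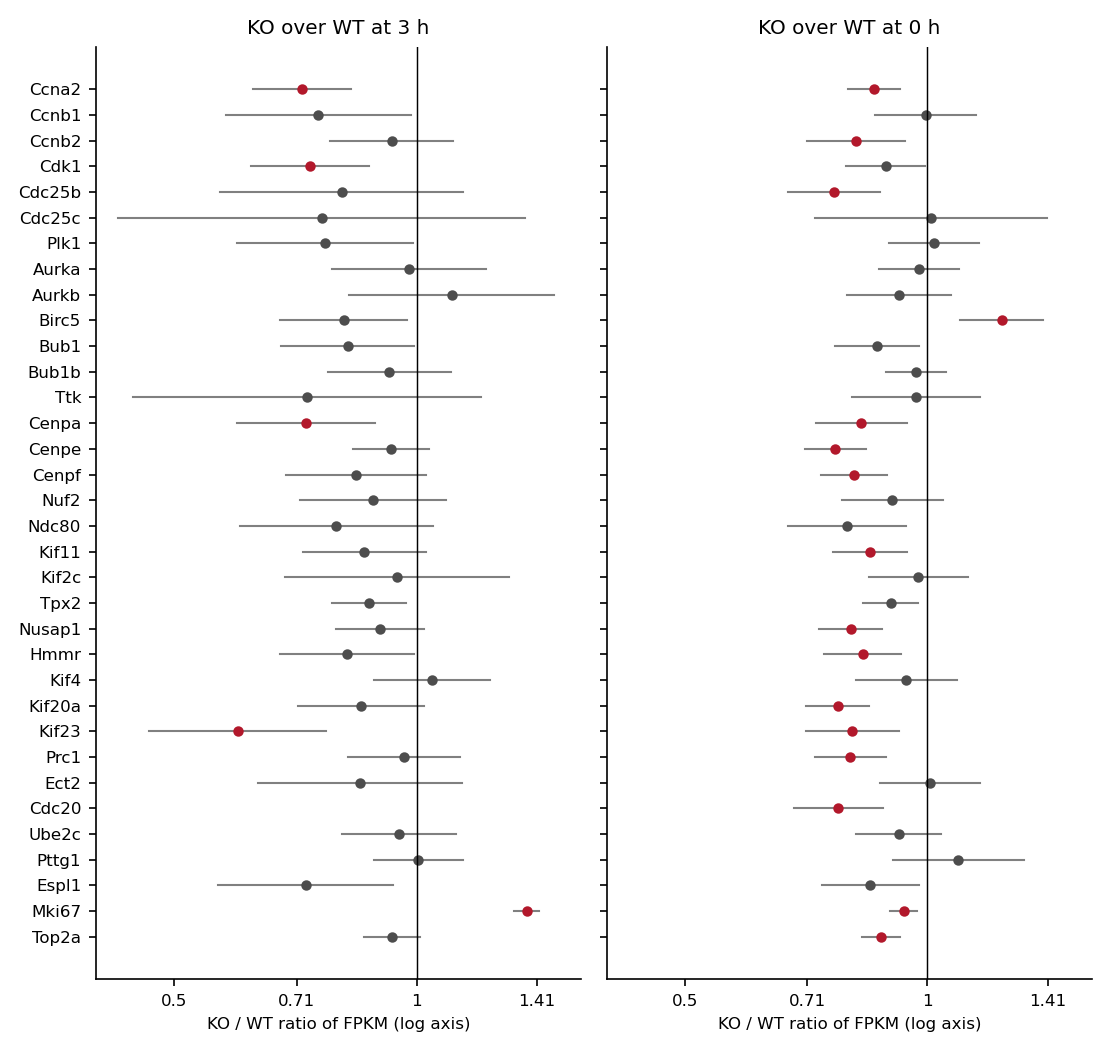
KO over WT ratio of FPKM (x axis, logarithmic) for each gene at 3 h (left) and at 0 h (right), with 95% intervals propagated from the deposited ones. Red points mark genes whose deposited intervals do not overlap, 5 at 3 h and 16 at 0 h; Mki67 is at 1.37 at 3 h and 0.935 at 0 h, and Cdc20 has no ratio at 3 h.

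The LPS responses of KO and WT cells could be set against each other for all 34 genes. The difference between the responses, KO minus WT, passed the rule for none of the 34, where 0.988% of 11128 genes passed it as higher and 1.53% as lower. It was below 0 for 17 members and above 0 for 17, with a median of -0.0027, and 29 of the 34 lay within 0.3 of 0. Over all 11128 genes it was below 0 for 7059 and above 0 for 4069, with a median of -0.075. How many of all genes lay within 0.3 of 0 was not counted, so that count of members has no background here. The lowest of the 34 was Birc5 at -0.58 and the highest Mki67 at 0.54. An interval that excludes 0 was found below 0 for 1 member, Birc5, against 22.9% of all genes, and above 0 for 4, Cenpe, Prc1, Mki67 and Cdc20, against 10.2%. For Cdc20, at 0 in both 3 h libraries, that value only repeats its difference at 0 h. Prc1 is summed over RefSeq entries whose shares differ between libraries. Across the 33 genes without Cdc20, Pearson's r between the responses in KO and WT cells was 0.96, and it was 0.90 over the 31 that remain without Pttg1 and Mki67. These are correlations across genes, which share libraries and are not independent replicates.

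Most other mitosis genes and S-phase genes fell as well, where 28.0% of all genes fell in KO cells and 23.2% in WT cells. Of 52 other mitosis genes, 37 fell in KO cells and 43 in WT cells, with medians of -1.28 and -1.39. In each genotype 13 of the 52 were under an FPKM of 1 at 3 h and passed the filter only through 0 h. Cenpk, listed at 0 in both 3 h libraries, is counted as fallen in both genotypes, and such a 0 can be a failed estimate. Incenp and Cdca8, further subunits of the passenger complex, fell in both genotypes: Incenp had 11.3 FPKM at 3 h against 34.3 at 0 h in KO cells and 10.7 at 3 h against 38.9 at 0 h in WT cells. Mad2l1, the checkpoint protein that holds CDC20 inactive, was the single gene of the 52 with a higher level at 3 h on the deposited scale, and it did not pass, with 22.5 FPKM at 3 h against 18.2 at 0 h in KO cells and 22.1 at 3 h against 20.4 at 0 h in WT cells. Of 29 measured S-phase genes, 23 fell in KO cells and 25 in WT cells, with medians of -1.50 and -1.63. Of the 30 listed, 6 in KO cells and 5 in WT cells were under an FPKM of 1 at 3 h. In each genotype 1 of these, listed at 0 throughout, was not measured, and the rest passed the filter only through 0 h. After median ratio scaling 16 other mitosis genes fell in KO cells and 25 in WT cells, and 14 and 17 S-phase genes did. With that scaling 10.3% of all genes fell in KO cells and 9.93% in WT cells.

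Regulators of CDK1 were mixed. Of 12, 4 fell in KO cells, near the 28.0% of all genes, and 5 in WT cells, against 23.2%, with medians of -0.44 and -0.96. In each genotype 3 of the 12 were under an FPKM of 1 at 3 h and passed the filter only through 0 h. After median ratio scaling 2 fell in each genotype and 1 rose in WT cells, and the median turned to 0.15 in KO cells and was -0.51 in WT cells. Fbxo5 (EMI1, an inhibitor of the anaphase-promoting complex) had 1.47 FPKM at 3 h against 9.35 at 0 h in KO cells and 1.66 at 3 h against 10.3 at 0 h in WT cells. Wee1, the kinase that CDC25 opposes, had 0.942 FPKM at 3 h against 4.90 at 0 h in KO cells and 0.870 at 3 h against 5.75 at 0 h in WT cells. Wee1 and Cdc25b, which act against each other on CDK1, thus both fell. Of 16 genes of the anaphase-promoting complex, 4 fell in KO cells and 2 in WT cells, with medians of -0.67 and -0.66 near those of all genes, and after median ratio scaling none fell and 1 rose in KO cells. Ube2s, its chain-elongating enzyme, did not pass, with 66.3 FPKM at 3 h against 50.3 at 0 h in KO cells and 70.4 at 3 h against 53.7 at 0 h in WT cells.

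Of 23 genes of E2F, DREAM, MuvB, FOXM1 and NF-Y factors, 9 fell in each genotype, where 28.0% of all genes fell in KO cells and 23.2% in WT cells, with medians of -0.90 in KO cells and -0.77 in WT cells. Under an FPKM of 1 at 3 h were 2 of the 23 in KO cells and 3 in WT cells, which passed the filter only through 0 h. After median ratio scaling 5 fell and 2 rose in KO cells and 7 fell in WT cells, with medians of -0.31 and -0.28. Foxm1, the activator of G2/M genes, had 2.14 FPKM at 3 h against 9.36 at 0 h in KO cells and 2.64 at 3 h against 9.35 at 0 h in WT cells. Mybl2 (B-MYB), its partner on MuvB, had 1.46 FPKM at 3 h against 5.21 at 0 h in KO cells and 1.42 at 3 h against 5.93 at 0 h in WT cells. E2f8, a repressor of E2F targets, was the single one of the 23 that passed the rule between genotypes at 3 h, with 22.4 FPKM in KO cells and 10.4 FPKM in WT cells, against 14.96 FPKM in KO cells and 16.4 FPKM in WT cells at 0 h. Its difference between responses was 1.16, past the rule.

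Among G1 genes and CDK inhibitors, 21 were measured, of which 10 fell and 4 rose in KO cells and 9 fell and 3 rose in WT cells on the deposited scale, where 28.0% of all genes fell and 7.86% rose in KO cells and 23.2% fell and 7.57% rose in WT cells. This balance turned with median ratio scaling, after which 5 fell and 9 rose in KO cells and 4 fell and 6 rose in WT cells, where 10.3% of all genes fell and 13.0% rose in KO cells and 9.93% fell and 11.9% rose in WT cells. Cdkn1a, which encodes the CDK inhibitor p21, rose 3.69-fold in KO cells and 4.32-fold in WT cells, with 754.1 FPKM at 3 h against 204.1 at 0 h in KO cells and 852.2 at 3 h against 197.1 at 0 h in WT cells. Myc, a driver of cell growth and division, had 3.34 FPKM at 3 h against 33.05 at 0 h in KO cells and 3.29 at 3 h against 31.2 at 0 h in WT cells. The lists were drawn up with earlier results of these data known, and their counts describe these libraries.

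**Figure D5:**
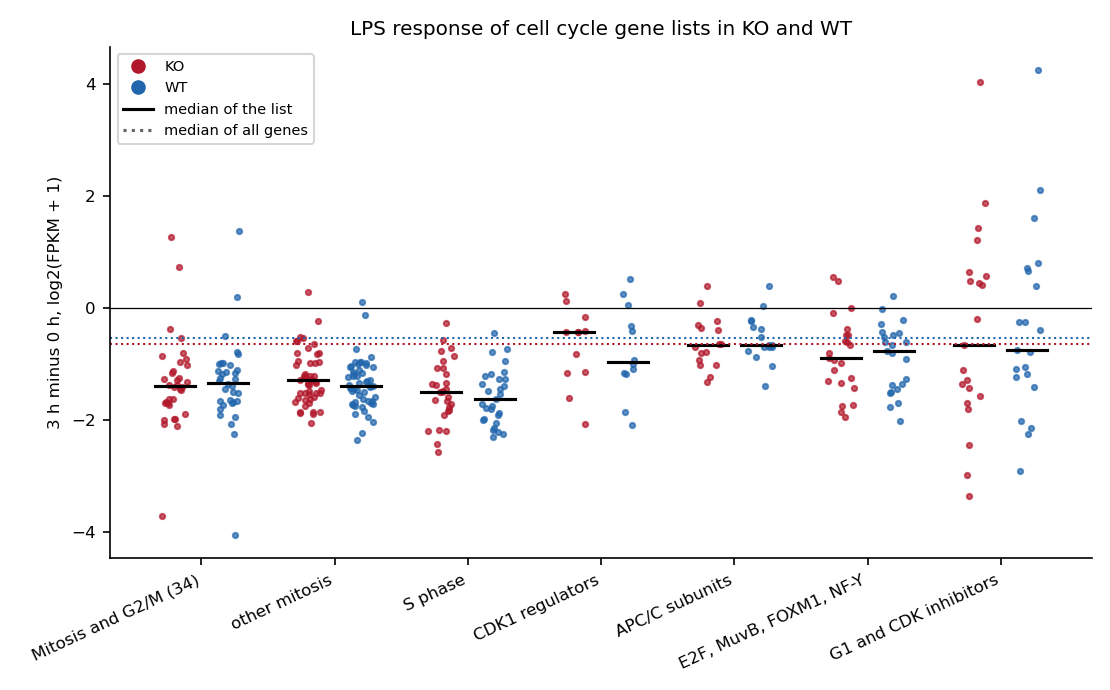
Difference between 3 h and 0 h of LPS, in log2(FPKM + 1), for measured genes of 7 cell cycle lists in KO cells (red) and WT cells (blue), with list medians (black bars) and the medians of all genes (dotted). The mitosis and G2/M genes have medians of -1.39 in KO cells and -1.33 in WT cells, and the anaphase-promoting complex subunits of -0.67 and -0.66.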

How the data were processed

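Per the labels, total RNA of 4 cultures was made into strand-specific SureSelect libraries for single-read sequencing (Illumina HiSeq 2000). The deposited values are FPKM per RefSeq entry with 95% intervals and a status, per the file headers. The submitters' processing notes name TopHat2, Bowtie, SAMtools and Cufflinks, and the build mm9, without versions. Members' loci fit GRCm38 (32 of 34 within 50 bases of the gene), so GRCm38 coordinates are printed.

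Of 33841 entries, 33437 were named from RefSeq and 187 from GENCODE, and 217 stayed unnamed. FPKM was summed per symbol (Python 3.11.15, pandas 2.3.3). Every member entry had the status OK. Where FPKM lay outside its own interval, the interval was moved onto it. Depth was estimated from single-read entries of transcripts over 2000 bases. Copies were sought with blastn 2.17.0 (at least 95% identity over 200 bases). All 34 members were named, with genes of 6 further lists by role and size. Members, lists and rules were chosen with earlier results of these data known. Alternatives changed the scaling, pseudocount, filter, threshold, use of intervals and summing.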

Additional observations from a re-analysis of the deposited data

Results flagged for a closer look

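Mki67 differed in direction between the 2 times. In log2(FPKM + 1), KO minus WT was 0.44 at 3 h and -0.09 at 0 h, and the deposited intervals were apart at both times. The difference between the times was not tested, since there is 1 library per group.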

How the results depend on the processing

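The deposited scale gave 26 members that fell in KO cells, 27 that fell in WT cells and 1 that rose in each. Under median ratio scaling 13 fell in KO cells and 15 in WT cells, 11 of them in both, and 2 rose in KO cells (Pttg1 and Mki67). Over all genes, 28.0% fell in KO cells and 23.2% in WT cells on the deposited scale. Median ratio scaling made these shares 10.3% and 9.93%, and 13.0% rose in KO cells. A pseudocount of 5 gave 12 in KO cells and 11 in WT cells, since it lowers every difference of low genes. With it 8.76% of all genes fell in KO cells and 7.30% in WT cells. A 1.5-fold threshold gave 30 that fell in KO cells and 31 in WT cells, and 2 that rose in KO cells. At that threshold 52.3% of all genes fell in KO cells and 46.4% in WT cells, and 11.1% rose in KO cells. The other settings (upper quartile scaling, a pseudocount of 0.1, no filter, an FPKM of at least 5, intervals not required, the highest entry per gene, and, added after seeing the data, Cdc20 left out) gave between 21 and 26 in KO cells and between 23 and 29 in WT cells. In those other settings between 12.8% and 38.1% of all genes fell in KO cells, and between 10.5% and 32.6% in WT cells. No member passed between KO and WT at either time, or for the difference between responses, in any setting run. No paired analysis was possible because each group has 1 library, and for the same reason no replicate could be left out. Cdc25c, Ttk, Cenpf and Espl1 were under an FPKM of 1 at 3 h in both genotypes. Counting limits Cdc25c (0.240 to 0.577 around 0.409 in KO cells at 3 h) and Ttk (0.304 to 0.566 around 0.435) most. The intervals of Cenpf (0.557 to 0.730 around 0.643) and Espl1 (0.532 to 0.757 around 0.645) were narrower for their level.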
